A study of Mus musculus with 6 samples.

Results

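The heterogeneous nuclear ribonucleoproteins (hnRNPs) of the A type are abundant RNA-binding proteins with paired RNA recognition motifs and a glycine-rich tail. They bind nascent transcripts, take part in splice site choice, accompany mRNAs to the cytoplasm and move between nucleus and cytoplasm with the import receptor transportin. Hnrnpa0 is known as a substrate of the stress kinase MK2 that binds AU-rich inflammatory mRNAs in LPS-treated macrophages, Hnrnpa1 as a repressor of exon inclusion, Hnrnpa2b1 as a reader of N6-methyladenosine and a sorter of RNA cargo, and Hnrnpa3 as a close relative of both. They share their AU-rich binding preferences in part with AUF1, the product of hnRNPD. The 4 genes Hnrnpa0, Hnrnpa1, Hnrnpa2b1 and Hnrnpa3 were taken by gene symbol, out of 55254 symbols in the count table, and were covered by 47 of its 177303 regions and 26 of its 142567 transcripts.

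Control BMDMs (bone marrow-derived macrophages) came from hnRNPDfl/fl mice and M-Δx3,4 BMDMs from LysCre+ hnRNPDfl/fl mice (LysMCre in the methods), in which Cre under the lysozyme promoter of the myeloid lineage removes exons 3 and 4 of both floxed alleles. All mice were C57BL/6J, and all cultures were differentiated for 10 days with medium of L929 cells and activated with 100 ng/ml LPS for 4 h, so no culture without LPS entered the comparison. RNA of 3 control and 3 M-Δx3,4 cultures was sequenced from its 3′ ends. The labels do not say that the 3 cultures of a group came from separate mice, and p-values then measure only the spread between these libraries.

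The summed counts ran from 5852374 to 9008878 per library, with 736 to 2425 counts on the leading transcripts of the 4 genes together. Counts of the regions of a transcript were summed, divided by median-of-ratios library factors and compared with the quasi-likelihood test of edgeR, with p-values adjusted by Benjamini-Hochberg over 32475 transcripts. Between 3 and 3 libraries, 0.1 is the smallest p of a two-sided exact permutation test. Hnrnpd itself was checked by the transcript annotated for p37 (ENSMUST00000072750), which is not its leading transcript and shares its reads with other isoforms. It was lower in every M-Δx3,4 library (177.8, 104.2 and 69.6 normalized counts against 52.8, 12.6 and 16.0; log2 fold change -2.11), although 3′ counts do not show exons 3 and 4. The related Hnrnpab and Hnrnpdl had log2 fold changes of -0.061 and 0.48 with overlapping libraries. All 9 macrophage markers were detected, with sums of 6717 to 7444 normalized counts in control and 5798 to 7368 in M-Δx3,4 libraries. Of the 9, 4 were higher and 5 lower, and Lyz2, the lysozyme gene, had a log2 fold change of -0.91 (edgeR unadjusted p = 0.0089). Only the M-Δx3,4 mice carried Cre under the lysozyme promoter, and the part of Cre in the Lyz2 value was not tested. The 5 B cell markers, mostly Igkc, summed to 251 to 282 in control and 98.1 to 120 in M-Δx3,4 libraries, where Ms4a1 was at 0. Of the 3 B cell markers tested, 2 were higher and 1, Igkc, was lower. The 4 proliferation markers summed to 46.0 to 61.5 and 25.2 to 40.1. Of these 4, Top2a was higher (log2 fold change 0.41) and the other 3 were lower. Fewer cells of a type and less RNA per cell cannot be told apart in such bulk libraries, and the part of these markers in the values of the hnRNP A genes was not tested.

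No hnRNP A transcript passed the adjusted threshold, and none of the 32475 did. Of the 26 transcripts, 24 had a count, 22 passed the filter on low counts and these held 15 different sets of counts, since transcripts that share a 3′ end share their reads. In M-Δx3,4 BMDMs 16 of the 22 were higher and 6 lower, and 11 of the 15 different sets of counts were higher. By leading transcripts 3 of the 4 genes were higher and 1 lower, where 49.5% of all genes were higher. Only the Hnrnpa2b1 transcript ENSMUST00000204885 had an unadjusted p under 0.05, 1 of 22 transcripts against 4.13% of all transcripts tested, which is close to the background. With a log2 fold change of 1 or more in either direction as a further condition, 0 of the 22 were left in edgeR, against 3.3% of all transcripts. ENSMUST00000204885 stood at 0.99, and it passed 1 in some of the alternatives, among them TMM factors (1.004), library totals only (1.011) and limma-voom (1.02). Every M-Δx3,4 library lay above every control library for 2 of the 22 transcripts, those of Hnrnpa0 and ENSMUST00000204885, against 4.1% of all transcripts. Each gene was represented by its leading transcript, that with the highest mean count. Of the 4 genes, 0 reached an unadjusted p under 0.05 by edgeR or DESeq2, against 3.98% of 11875 genes by edgeR, and Hnrnpa2b1 did so by limma-voom. Control and M-Δx3,4 libraries were separate for 2 of the 4, Hnrnpa0 (higher) and Hnrnpa1 (lower), against 8.44% of those genes in either direction.

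**Figure D1:**
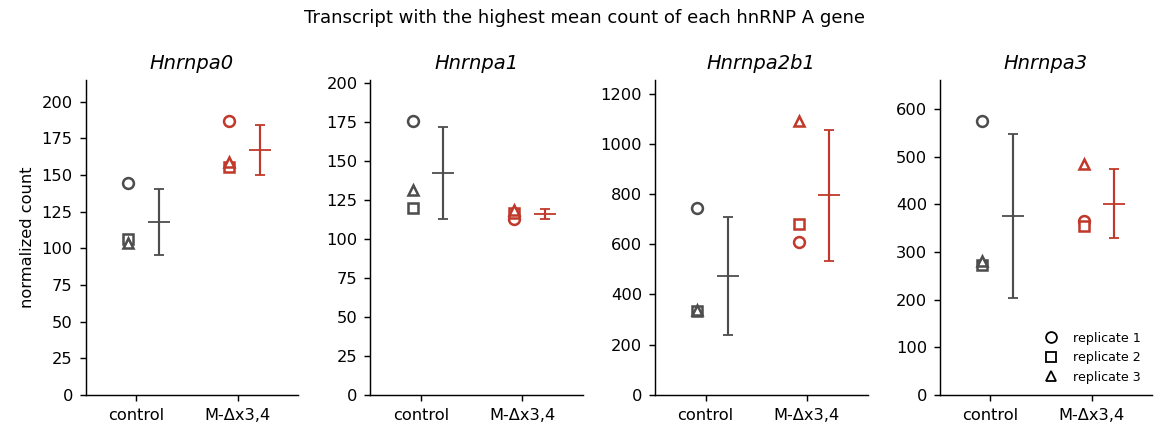
Normalized counts (vertical axes, each from 0) of the transcript with the highest mean count of each hnRNP A gene in the 3 control and 3 M-Δx3,4 libraries; symbols mark the replicate number, and bars give the mean ± SD. The groups are separate for Hnrnpa0 and Hnrnpa1, and control replicate 1 stands above the other controls for Hnrnpa2b1 and Hnrnpa3.

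Some of the annotated 3′ ends at which these genes were counted are shown because the results below turn on which end was used. Sequences are the last 30 bases of the transcripts in GENCODE vM21 (GRCm38), 5′ to 3′ on the transcribed strand, and capitals mark the hexamer AATAAA or ATTAAA, the signal read by the cleavage and polyadenylation machinery.
Hnrnpa0, chr13:58125879-58125908, minus strand: ggatatcacaAATAAAgaattcaattctta
Hnrnpa1, coding transcripts, chr15:103244926-103244955, plus strand: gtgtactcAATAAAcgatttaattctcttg
Hnrnpa2b1, proximal end, chr6:51462760-51462789, minus strand: tatgatttAATAAAataattctaaaggaaa
Hnrnpa2b1, distal end of ENSMUST00000090002, chr6:51461124-51461153, minus strand: aagttttataaAATAAAtacttttgtatcc
Hnrnpa2b1, distal end of ENSMUST00000069949, chr6:51460932-51460961, minus strand: ttactgtctAATAAAatataccttactatg
Hnrnpa3, longest transcript, chr2:75669378-75669407, plus strand: ccttttcATTAAAatatttttagaaatgtg
Searched on the transcribed strand only, AATAAA stood in the same window at 33.8% of 52246 distinct ends of coding transcripts, and AATAAA or ATTAAA at 42.2%. Of the shorter Hnrnpa3 ends, at 75665286, 75665455, 75665839 and 75666121, none held either hexamer in these 30 bases. The ends of ENSMUST00000204885, ENSMUST00000204090 and ENSMUST00000203253 of Hnrnpa2b1 held neither as well. The end of the leading Hnrnpa1 transcript, ENSMUST00000230489, at 103246692, held AATAAA. The pentamer ATTTA, the core letters of AU-rich elements, occurred 3 times in the last 300 bases of the coding Hnrnpa1 transcripts and of ENSMUST00000090002 of Hnrnpa2b1, 2 times before the proximal and the last distal end of Hnrnpa2b1 and 0 times before the ends of Hnrnpa0 and of the longest Hnrnpa3 transcript. Among coding ends of all genes, 32.4% held at least 1 and 2.97% at least 3.

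Levels of the genes were set side by side per length, in the authors' TPM, a unit that divides by the length of the region. Reads of 3′ libraries gather near transcript ends, so this division lowers the values of long regions and the order below depends on the regions taken. On that scale the leading transcript of Hnrnpa2b1 (ENSMUST00000090002) had 32.7 to 115 TPM, above the leading transcripts of the other 3 genes in every library. The leading transcript of Hnrnpa1 (ENSMUST00000230489, 3.72 to 6.17 TPM) was below those of Hnrnpa0 (4.71 to 9.32 TPM) and Hnrnpa3 (ENSMUST00000111962, 4.44 to 10.4 TPM) in every library, while the order of Hnrnpa0 and Hnrnpa3 changed between libraries. With shorter regions, the coding Hnrnpa1 transcripts had 7.57 to 11.9 TPM and ENSMUST00000111964 of Hnrnpa3 had 16.1 to 40.4 TPM.

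Hnrnpa0, an intronless gene on chromosome 13, was counted over a single region (chr13:58125879-58127395). Its normalized counts were 144.1, 106.3 and 103.3 in control and 186.8, 155.4 and 159.0 in M-Δx3,4 libraries. The lowest M-Δx3,4 library stood above the highest control library. The means were 117.9 ± 22.8 and 167.0 ± 17.2 (SD, n = 3), a log2 fold change of 0.50 (standard error 0.34, edgeR unadjusted p = 0.156, adjusted p = 0.984; exact permutation test, two-sided, p = 0.1). Leaving out each library in turn gave log2 fold changes of 0.41 to 0.67.

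Hnrnpa1 on chromosome 15 was counted for 3 coding transcripts and for 2 transcripts annotated as targets of nonsense-mediated decay, which run on past the coding end. The transcript with the highest mean count, ENSMUST00000230489, is of the second kind and adds its own 3′ exons to the reads it shares with the coding transcripts. It had 175.5, 119.5 and 131.1 normalized counts in control and 112.5, 116.5 and 118.5 in M-Δx3,4 libraries. Every M-Δx3,4 library was lower, though the nearest libraries (119.5 and 118.5) were almost level, and the log2 fold change was -0.29 (standard error 0.34, edgeR unadjusted p = 0.400). Over the 6 fits that each dropped a library it ran from -0.40 to -0.11, the latter without control replicate 1. The coding transcripts (ENSMUST00000036004 and 2 with the same counts) had 147.6, 108.3 and 119.5 against 95.9, 105.8 and 108.5, and here the groups overlapped (log2 fold change -0.27). The main 3′ UTR region (chr15:103244256-103245966) held most of these reads, with 122.0, 96.04 and 109.1 normalized counts in control and 88.0, 91.3 and 91.7 in M-Δx3,4 libraries. Here every M-Δx3,4 library was lower (exact permutation test, two-sided, p = 0.1). The last exon of the nonsense-mediated decay transcripts (chr15:103246545-103246941) held 4.09 to 12.8 normalized counts in control and 1.53 to 8.80 in M-Δx3,4 libraries.

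Hnrnpa2b1 on chromosome 6 had the largest log2 fold changes among the 4 genes, and they differed between its 3′ ends. It has 13 transcripts in the table, 11 with a count, and most of the reads that tell its 3′ ends apart fell on a proximal region (chr6:51462511-51463254), a middle exon (chr6:51461920-51462055) and a distal region (chr6:51460683-51461433), named in the direction of transcription. A short upstream piece (chr6:51463411-51463431), counted for distal and proximal transcripts alike, had 142, 64 and 41 raw counts in control and 64, 128 and 288 in M-Δx3,4 libraries. Since it does not tell the ends apart, it was left out of the shares given below, as was the window of ENSMUST00000203253 around it (chr6:51463223-51463471). Its leading transcript, ENSMUST00000090002, uses the distal end and the middle exon. ENSMUST00000203954 and ENSMUST00000204158, annotated as targets of nonsense-mediated decay, had the same counts, so their reads cannot be told apart from those of this coding transcript. ENSMUST00000090002 had 746.2, 335.1 and 338.8 normalized counts in control and 610.4, 681.7 and 1091 in M-Δx3,4 libraries. Control replicate 1 stood above M-Δx3,4 replicates 1 and 2, so the groups overlapped. The log2 fold change was 0.75 (standard error 0.38, edgeR unadjusted p = 0.0678, adjusted p = 0.984). Without control replicate 1 it was 1.24 (unadjusted p = 0.00161, adjusted p = 0.157), and without M-Δx3,4 replicate 3 it was 0.45. The other coding distal transcript, ENSMUST00000069949, which lacks the middle exon, had a log2 fold change of 0.79, which was 1.35 without control replicate 1 and 0.49 without M-Δx3,4 replicate 3.

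The transcripts that use the proximal end (ENSMUST00000114459, ENSMUST00000203220 and ENSMUST00000204188) had 742.7, 355.6 and 294.7 normalized counts in control and 360.0, 466.1 and 633.5 in M-Δx3,4 libraries. Their log2 fold change was 0.068 (standard error 0.38). Without control replicate 1 it was 0.58, and without M-Δx3,4 replicate 3 it was -0.17, so neither direction held. ENSMUST00000204090, a retained-intron transcript whose window lies inside the proximal region, had a log2 fold change of -0.14. ENSMUST00000203253, which ends within the coding sequence, had 0.55, with 62.6 to 221.6 normalized counts in M-Δx3,4 and 48.7 to 165.0 in control libraries. Without control replicate 1 it was 1.26 (edgeR unadjusted p = 0.0138), and without M-Δx3,4 replicate 3 it was 0.0053. ENSMUST00000204902 had at most 3 counts in any library, and ENSMUST00000203655 and ENSMUST00000205204 had 0 in all 6.

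ENSMUST00000204885 is annotated as a retained intron and ends 21 bases before ENSMUST00000090002. Its counted window, the 249 bases past its own annotated end (chr6:51460896-51461144), therefore covers the distal ends of the coding and nonsense-mediated decay transcripts. Reads there cannot be told apart from theirs. ENSMUST00000204885 had 155.7, 110.3 and 97.5 normalized counts in control and 229.9, 238.9 and 254.5 in M-Δx3,4 libraries. The lowest M-Δx3,4 library was well above the highest control library. The means were 121.2 ± 30.6 and 241.1 ± 12.5 (SD, n = 3), a log2 fold change of 0.99 (standard error 0.34, edgeR unadjusted p = 0.00968, adjusted p = 0.984). Over 15 alternatives, leaving out each library among them, the log2 fold change ran from 0.87 to 1.21 and the unadjusted p from 0.00207 to 0.0453, while no adjusted p fell under 0.168. The distal reads outside this window made up 58.7% ± 10.1 of the distal region in control and 56.4% ± 8.36 in M-Δx3,4 libraries, with no difference beyond the spread (exact permutation test, two-sided, p = 0.7).

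**Figure D2:**
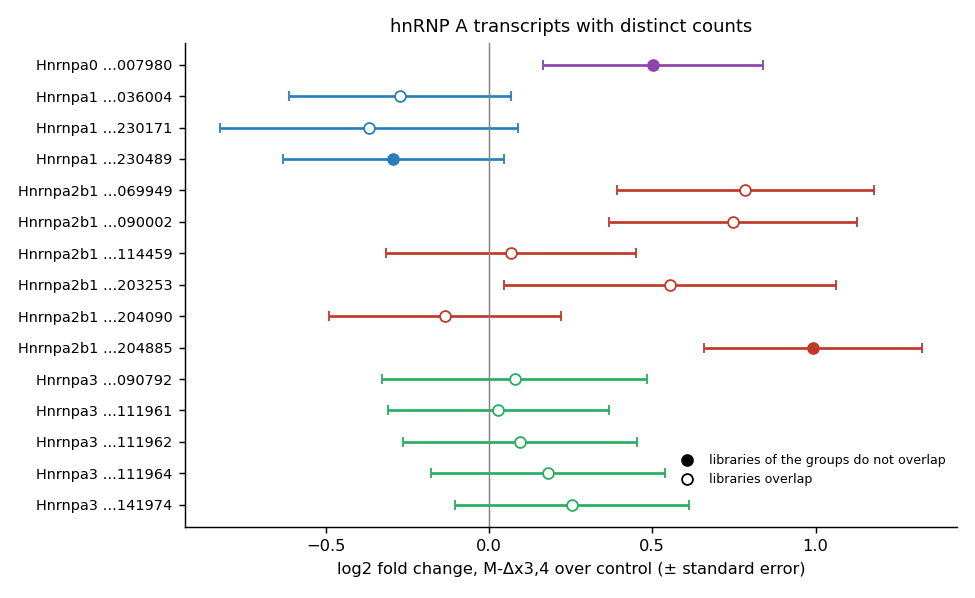
Log2 fold changes, M-Δx3,4 over control, with standard errors (horizontal axis) of the 15 hnRNP A transcripts with distinct counts that passed the filter; transcript numbers are shortened to their last digits. Filled points mark transcripts whose groups do not overlap, which are ENSMUST00000007980 of Hnrnpa0, ENSMUST00000230489 of Hnrnpa1 and ENSMUST00000204885 of Hnrnpa2b1.

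The balance between the distal and the proximal end of Hnrnpa2b1 was then compared within each library, where the library factor and the total level of the gene drop out. This comparison was chosen after its counts had been seen. The raw counts on the distal region were 440, 214 and 195 in control and 497, 498 and 980 in M-Δx3,4 libraries. Those on the proximal region were 497, 284 and 213 against 304, 352 and 541. Control libraries thus had fewer distal than proximal counts, and M-Δx3,4 libraries more. The distal share of both was 47.0%, 43.0% and 47.8% in control and 62.0%, 58.6% and 64.4% in M-Δx3,4 libraries. The exact binomial 95% intervals, which cover counting error only, reached up to 52.8% in the control libraries and down to 55.2% in the M-Δx3,4 libraries, so they did not meet.

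The mean distal share was 45.9% ± 2.58 in control and 61.7% ± 2.94 in M-Δx3,4 BMDMs (SD, n = 3), a difference of 15.8 percentage points (two-sided exact permutation test, p = 0.1, the smallest possible). With each library left out in turn the difference was 14.3 to 17.3 percentage points. Control replicate 1, whose total level of Hnrnpa2b1 was high, had the distal share of the other controls. The middle exon kept 9.07% ± 3.03 of the counts of the 3 regions in control and 8.34% ± 1.12 in M-Δx3,4 libraries, with no difference beyond the spread (exact permutation test, two-sided, p = 0.8).

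The same ratio was tested across all genes with at least 2 separate 3′ regions of mean normalized count 10 or more, taking the region farthest downstream against the rest of the gene, with a term for each library in edgeR's quasi-likelihood model. Of 679 genes, Hnrnpa2b1 had the fifth smallest p, with a log2 fold change of the ratio of 0.86 (unadjusted p = 0.00478). Its adjusted p was 0.538, and no gene passed the adjusted threshold. An unadjusted p under 0.05 with a higher last region was found for 2.5% of the genes. Over all genes with a share in every library, the share of the last region rose by a median of 0.46 percentage points, with an SD over genes of 6.28. Hnrnpa2b1, at 14.8 percentage points of its 3 regions, was 20th of 663 from the top, and every M-Δx3,4 library lay above every control library for 4.37% of these genes. Hnrnpa1, the other hnRNP A gene with separate regions of sufficient count, had a log2 fold change of the ratio of -0.014 (unadjusted p = 0.978 in the same edgeR test).

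**Figure D3:**
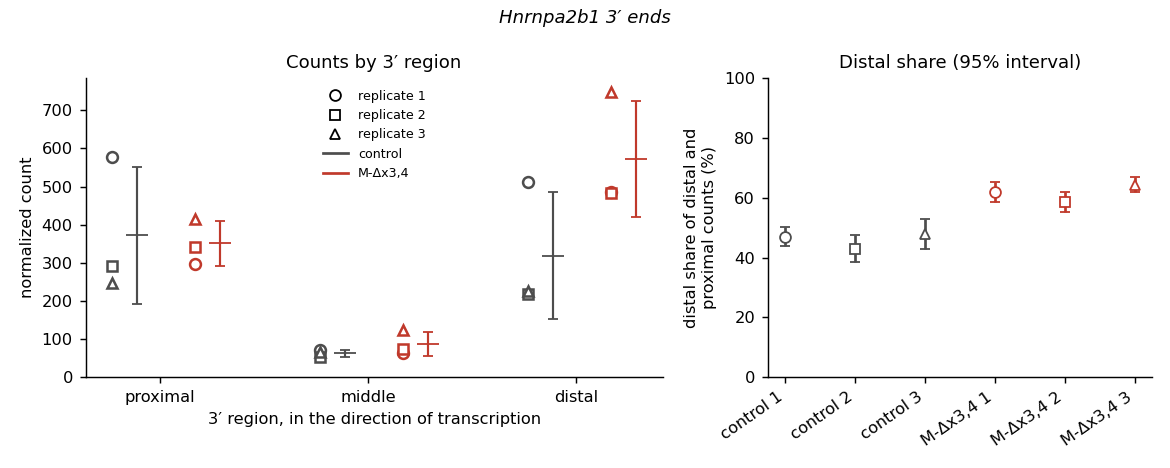
Left, normalized counts (vertical axis) of the proximal, middle and distal 3′ region of Hnrnpa2b1 in each library, with the mean ± SD; right, distal share of distal and proximal counts in percent with exact binomial 95% intervals. The distal share is 43.0% to 47.8% in the 3 control libraries and 58.6% to 64.4% in the 3 M-Δx3,4 libraries.

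**Figure D4:**
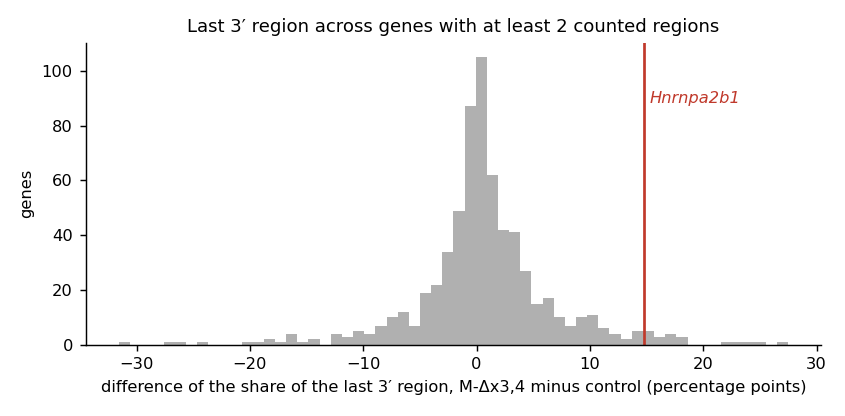
Number of genes (vertical axis) by the difference between M-Δx3,4 and control in the mean share of the last 3′ region, in percentage points (horizontal axis), for 663 genes; the red line marks Hnrnpa2b1 at 14.8. The histogram is centred near 0, with a few genes at larger differences in each direction.

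Hnrnpa3 on chromosome 2 differed between the groups by less than its libraries spread. Its longest transcript, ENSMUST00000111962, had 575.3, 271.8 and 280.8 normalized counts in control and 364.9, 354.4 and 484.5 in M-Δx3,4 libraries. Control replicate 1 was the highest of the 6 libraries and the other controls were the lowest. The log2 fold change was 0.095 (standard error 0.36, edgeR unadjusted p = 0.794), and it was 0.54 without control replicate 1 and -0.094 without control replicate 2. The shorter coding transcripts, which share its region from 75665398 or begin upstream of it, had log2 fold changes of 0.029 (ENSMUST00000111961), 0.18 (ENSMUST00000111964), 0.078 (ENSMUST00000090792 and ENSMUST00000164947) and 0.25 (ENSMUST00000141974), all with overlapping libraries. ENSMUST00000132392 had at most 1 count in any library.

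The 3′ regions of Hnrnpa3 are nested, so its choice of end was read from the part past the shortest long region. Of the counts from 75665398 to 75669656, the part past 75666088 held 37.7%, 29.0% and 42.6% in control and 24.2%, 32.7% and 39.5% in M-Δx3,4 libraries. The groups overlapped (36.4% ± 6.86 and 32.1% ± 7.69; exact permutation test, two-sided, p = 0.6). The part past 75666370 held 17.2% ± 8.58 and 22.8% ± 5.47 (exact permutation test, two-sided, p = 0.4). Of the counts from 75665398 to 75666370, the part past 75666088 held 22.6% ± 12.4 and 12.3% ± 3.74. The groups overlapped there as well (exact permutation test, two-sided, p = 0.2).

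Of the 4 genes, Hnrnpa3 also had the most near copies of its annotated ends in other genes. Whether reads were misplaced between Hnrnpa3 and these copies was not tested, so its counts are to be read with care. A search of the last 500 bases of each annotated end against all transcripts of GENCODE vM21 found 32 other genes that matched Hnrnpa3 at 95% identity or more over at least 200 bases, nearly all annotated as processed pseudogenes. Of these, 25 had counts of their own, and 2 were identical over the aligned part. Together they held 485.8, 161.4 and 167.1 normalized counts in control and 249.4, 153.4 and 357.6 in M-Δx3,4 libraries. Control replicate 1 was the highest here as well, and the groups overlapped (exact permutation test, two-sided, p = 0.8). Hnrnpa1 had 8 such copies with 8 to 28 raw counts per library in all, Hnrnpa2b1 had 1 with 0 to 5, and Hnrnpa0 had 0. No other gene of that annotation overlapped the counted regions of the 4 genes on either strand.

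The make-up of the hnRNP A counts within each library was then compared between the groups. The share of Hnrnpa2b1 in the summed normalized counts of the 4 leading transcripts was 45.5%, 40.2% and 39.7% in control and 47.9%, 52.1% and 58.9% in M-Δx3,4 libraries. That of Hnrnpa3 was 35.1%, 32.6% and 32.9% against 28.6%, 27.1% and 26.1%. That of Hnrnpa1 was 10.7%, 14.4% and 15.4% against 8.83%, 8.91% and 6.39%. For these 3 genes the groups did not overlap (exact permutation test, two-sided, p = 0.1 for each in a family of 4 tests, the smallest possible and not past 0.05). The share of Hnrnpa0 was 11.2% ± 2.13 and 11.7% ± 3.04 (exact permutation test, two-sided, p = 1). The shares sum to 100 in a library and are therefore not independent of each other. How often such shares separate in other sets of genes was not tested. With the counts summed over separate regions, which includes the proximal end of Hnrnpa2b1, its share was 54.0% ± 2.89 and 59.8% ± 3.63 and the groups overlapped (exact permutation test, two-sided, p = 0.2), while those of Hnrnpa1 and Hnrnpa3 remained lower in every M-Δx3,4 library.

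**Figure D5:**
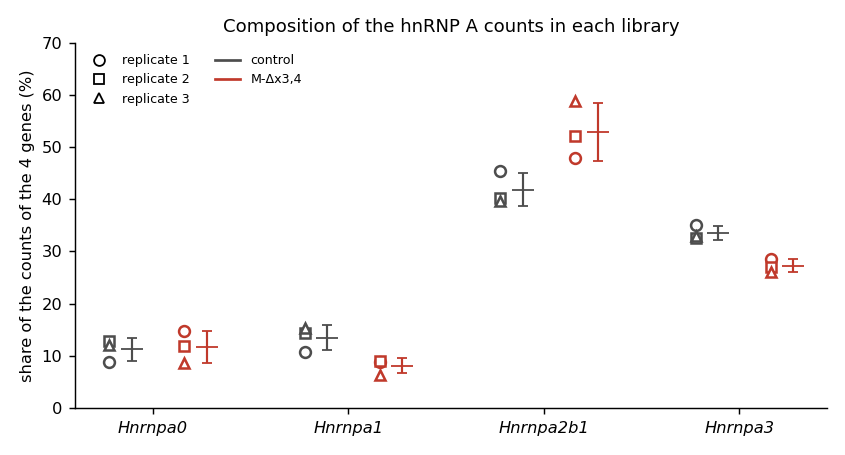
Share in percent (vertical axis) of each hnRNP A gene in the summed normalized counts of the 4 leading transcripts in each library, with the mean ± SD of each group. Hnrnpa2b1 is higher in the 3 M-Δx3,4 libraries than in the 3 control libraries, Hnrnpa1 and Hnrnpa3 are lower, and Hnrnpa0 overlaps.

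Over the 6 libraries, Hnrnpa2b1 and Hnrnpa3 varied together (Pearson r = 0.86 in log2(normalized count + 1)), Hnrnpa0 and Hnrnpa2b1 less so (0.79), and Hnrnpa1 and Hnrnpa2b1 hardly at all (0.087). These are descriptions over 6 libraries that share the high control replicate 1. Among 3216 genes with a mean of at least 100 normalized counts, the patterns nearest to Hnrnpa0 were those of Gm22574 (r = 0.996), Gm6548 (0.986) and Cmpk2 (0.985). The nearest to Hnrnpa1 were Cks1b (0.981), Mef2d (0.960) and Samhd1 (0.946). For Hnrnpa2b1 they were Tpd52 (0.996), Klf6 (0.994) and Eps15 (0.984), and for Hnrnpa3 Hpf1 (0.998), Eif2s2 (0.987) and Cct4 (0.987).

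Genes that work with the hnRNP A proteins were counted in 5 lists, and 47 of the 48 genes with a count were tested. By their leading transcripts 25 were higher and 22 lower in M-Δx3,4 BMDMs, and edgeR gave 1 of the 47 an unadjusted p under 0.05 (adjusted p = 0.984), fewer than the 3.98% of all genes. The libraries of the groups were separate for 3 of the 47, against 8.44% of all genes. Neither count is above the background. The gene with the unadjusted p under 0.05 was Fto, an eraser of N6-methyladenosine (88.3, 125.7 and 146.2 against 98.8, 52.4 and 48.1 normalized counts; log2 fold change -0.86, unadjusted p = 0.0492). The other 15 writers, erasers and readers of this mark had an unadjusted p above 0.05. Among them Hnrnpc, whose product binds uridine tracts exposed by it, had 251.1, 264.6 and 255.2 against 183.9, 231.1 and 213.2 (log2 fold change -0.30), with every M-Δx3,4 library lower. For nuclear import and arginine methylation of hnRNP A proteins, 6 genes were listed (Tnpo1, Tnpo2, the methyltransferase genes and Wdr77). Of these, 4 were higher and 2 lower, with a median log2 fold change of 0.0070 and overlapping libraries throughout. Of the microRNA processing genes 3 of 6 were higher, and Khsrp, a binder of AU-rich elements and microRNA precursors, was lower in every M-Δx3,4 library (log2 fold change -0.74, edgeR unadjusted p = 0.141). Of 12 splicing partners and targets 7 were higher, and Snrnp70, of the U1 particle, was lower in every M-Δx3,4 library (log2 fold change -0.49, edgeR unadjusted p = 0.124). Of the 7 genes of nucleic acid sensing 4 were higher and 3 lower, with a median log2 fold change of 0.098 against -0.0065 over all genes, and their libraries overlapped.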

How the data were processed

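Libraries were made with the QuantSeq 3′ mRNA kit for Ion Torrent. Per the labels, the authors aligned reads to mm10 with TopHat2 2.1.1 and Bowtie2 2.3.2, and they deposited raw read counts per 3′ UTR region of Ensembl transcripts, made with metaseqR2. In the files these regions ended 249 bases past the annotated transcript end for most transcripts of the 4 genes. The authors also deposited TPM values per transcript, which divide by region length and are used only for levels between genes. The other 18 per-sample columns and the authors' fold changes and p-values were not used.

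Counts were summed per transcript and normalized with median-of-ratios factors. Transcripts above the median normalized count (4.89) in at least 1 library were tested with edgeR 4.0.16, checked on simulated data. DESeq2 1.42.0 and limma 3.58.1 were alternatives, beside other factors, filters and leaving out each library. Overlapping regions of a gene were merged, each merged group represented by its widest region, for comparisons of 3′ ends. Near copies were searched with blastn 2.17.0. The exact permutation test compared libraries. Named genes were the 4 members, the 3 genes most like each, and genes of 5 lists with an unadjusted p under 0.05 or separate libraries. Members and lists were chosen with earlier results of these data known. A further list is not reported here.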

Additional observations from a re-analysis of the deposited data

How the results depend on the processing

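Of the hnRNP A genes, Hnrnpa0 and Hnrnpa1 kept their direction and stayed without an unadjusted p under 0.05 in all 16 alternatives. The log2 fold change of the leading Hnrnpa2b1 transcript was 0.81 by limma-voom and 0.75 with no filter on low counts, and both then had an unadjusted p under 0.05 (0.0379 and 0.0322). Leaving out 1 library at a time, it ran from 0.45 to 1.24, that of the leading Hnrnpa3 transcript from -0.094 to 0.54, of ENSMUST00000230171 from -0.57 to 0.16, of ENSMUST00000204090 from -0.34 to 0.28, of ENSMUST00000114459 from -0.17 to 0.58, of ENSMUST00000090792 from -0.13 to 0.50, of ENSMUST00000111961 from -0.14 to 0.36 and of ENSMUST00000111964 from -0.023 to 0.61, so that these last 7 changed sign. Control replicate 1 gave the upper ends. The cause was not tested. The difference in the share of Hnrnpa3 among the 4 genes was -6.24 percentage points by leading transcripts and -3.12 with separate regions summed.

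The main edgeR fit used here gave 1340 transcripts with an unadjusted p under 0.05. This number was 2148 with no filter, 749 with filterByExpr and 628 with at least 10 counts in every library. It was 463 with 1 transcript per gene, and 771 to 4572 with 1 library left out. With a log2 fold change of 1 or more in either direction as well, the main fit gave 1071. That number became 706 by DESeq2, 1715 with no filter, 471 with filterByExpr and 265 with at least 10 counts. It was 363 with 1 transcript per gene and 685 with the replicate block. With 1 library left out it was 710 to 3224, the highest without control replicate 1. By adjusted p under 0.05, DESeq2 called 4 transcripts, edgeR without a filter 118 and edgeR without control replicate 1 called 55.

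The labels do not say whether the sample numbers pair the libraries of the 2 groups. Correlations of deviations from a shared group mean depend on each other and do not settle it. Deviations of same-numbered libraries from their group means had correlations of -0.21, 0.54 and -0.31 over 4723 genes. Across different numbers, control replicate 1 had 0.54 with replicate 3 and -0.33 with replicate 2 of the other group. Control replicate 3 had 0.28 with replicate 1 and 0.029 with replicate 2 of that group. Control replicate 2 had -0.14 with its replicate 1 and -0.40 with its replicate 3. The replicate block followed the sample numbers, and a block in another order was not tested. With the replicate block, the distal against the rest of Hnrnpa2b1 gave a log2 fold change of 0.86 (unadjusted p = 0.0105, adjusted p = 0.889 in edgeR), ENSMUST00000204885 gave 1.02, and ENSMUST00000069949 had an unadjusted p of 0.0497. The tests of the 3′ end balance and their alternatives were chosen after seeing the data. Depth limits the minor ends most, such as the last Hnrnpa1 exon with 2 to 11 raw counts per library.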
